A study of Mus musculus with 6 samples.

Results

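The genes described here encode the constant regions of antibodies and a pair of proteins that help plasma cells assemble and release them. The 10 genes were chosen by symbol, with earlier results of these data known, and each symbol matched 1 row of the count matrix, which holds 55401 gene identifiers. Ighm, Ighd, Ighg3, Ighg1, Ighg2b, Ighg2c and Igha encode the heavy chains of IgM, IgD, 4 subclasses of IgG and IgA. Igkc encodes the constant part of the kappa light chain. Jchain encodes the peptide that joins IgM pentamers and IgA dimers, and Mzb1 encodes a chaperone of the endoplasmic reticulum that aids IgM assembly.

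The RNA came from brain cells of 6-week-old MRL/lpr mice, a lupus-prone strain that carries the lpr mutation of the death receptor gene Fas, and of MRL/mpj mice of the same age, the control strain that shares the MRL background. Cells were collected on a Percoll gradient and with magnetic beads against CD11b, an integrin chain found on microglia as well as on monocytes and neutrophils, and neither strain was treated. There were 3 libraries per strain. The labels do not say whether the libraries came from separate animals or from pools, so the p-values measure only the spread between these libraries, which may be technical.

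An antibody is built from paired heavy and light chains. A B cell that has not switched class makes IgM and IgD from the same rearranged heavy-chain gene, and class switching then replaces the mu segment with a gamma, epsilon or alpha segment further along the locus. Plasma cells, the end stage of the B lineage, transcribe heavy-chain, light-chain and Jchain genes at very high levels, whereas microglia, the resident macrophages of the brain, are not known as antibody-making cells.

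The libraries held 45481609 to 49846634 counts, and all 12 microglia markers on the list used here, such as Tmem119 and Csf1r, the receptor for colony-stimulating factor 1, were detected in every library. Multiples of 4 were over-represented among low counts. In the library of MRL/lpr replicate 1, 1234 genes had 4 counts, 377 had 3 and 254 had 5, so a low count may rest on fewer reads than it seems. The row CT010467.1 took 6.381% of the counts in MRL/lpr replicate 3 and 0.169% to 0.457% in the other libraries. The share of mitochondrial counts was 3.057% to 3.489% in MRL/lpr and 5.836% to 6.377% in MRL/mpj. Fas had 461, 282 and 298 counts in MRL/lpr and 426, 432 and 362 in MRL/mpj (log2 fold change −0.06, SE 0.21, adjusted p = 0.887, edgeR), and counts per gene do not show the lpr allele itself. Xist, the RNA of the inactive X chromosome, had 10847, 11319 and 8886 counts in MRL/lpr and 29, 38 and 27 in MRL/mpj (log2 fold change 8.53, SE 0.14, adjusted p = 6.18e-09). Y-linked Ddx3y (3690 to 7559 counts), Eif2s3y (2062 to 3900), Uty (1732 to 2484) and Kdm5d (924 to 1833) were detected in all 6 libraries, and of these only Kdm5d passed the test (log2 fold change −0.59, SE 0.09, adjusted p = 0.00136). The study's methods name female mice, which the Y-linked counts in all 6 libraries and the low Xist counts in MRL/mpj do not match. Xist thus moved with strain while Y-linked RNA was present in both strains, so strain and the sex make-up of the libraries cannot be told apart in any result below.

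The heavy-chain genes lie side by side on the minus strand of chromosome 12 (GRCm38), in the order Ighm at chr12:113418558-113422730, Ighd at chr12:113406604-113416324, Ighg3 at chr12:113356224-113361232, Ighg1 at chr12:113325240-113330523, Ighg2b at chr12:113302965-113307933, Ighg2c at chr12:113285325-113288932 and Igha at chr12:113254830-113260236. Igkc lies at chr6:70726435-70726966 on the plus strand and Jchain at chr5:88519809-88527891 on the minus strand. The isotype counts turn on how well reads separate these genes, so the opening 90 bases of the constant part are shown for the gamma genes. They are the 5′ start of the first coding exon in the reference annotation, at chr12:113361143-113361232, chr12:113330434-113330523, chr12:113307844-113307933 and chr12:113288843-113288932. Capitals mark the 29 of 90 positions at which the 4 genes are not all the same:
Ighg3: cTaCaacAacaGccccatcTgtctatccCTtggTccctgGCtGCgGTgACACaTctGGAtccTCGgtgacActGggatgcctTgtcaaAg
Ighg1: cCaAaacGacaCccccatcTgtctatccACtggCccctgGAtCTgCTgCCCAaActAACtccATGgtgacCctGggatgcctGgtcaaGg
Ighg2b: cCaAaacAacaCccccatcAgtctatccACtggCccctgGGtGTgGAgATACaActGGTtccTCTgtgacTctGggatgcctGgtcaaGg
Ighg2c: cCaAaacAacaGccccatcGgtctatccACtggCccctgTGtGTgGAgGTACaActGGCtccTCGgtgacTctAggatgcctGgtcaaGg
The same stretch of the mu gene, at chr12:113422641-113422730, and of the kappa gene, at chr6:70726435-70726524, is shown to compare with them, all in lower case because it was not aligned to the gamma genes:
Ighm: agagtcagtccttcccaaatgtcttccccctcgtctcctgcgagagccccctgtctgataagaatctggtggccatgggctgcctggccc
Igkc: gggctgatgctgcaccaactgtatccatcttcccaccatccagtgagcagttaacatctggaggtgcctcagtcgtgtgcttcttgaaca
Over the coding parts of the secreted forms, Ighg2b and Ighg2c were 85.7% identical and shared a longest run of 78 bases. The other gamma pairs were 74.1% to 76.3% identical, with longest shared runs of 28 to 41 bases. Ighm was 45.5% to 46.3% identical to the gamma genes. The counting method is not given in the sources used here, so reads may have been split among the gamma genes, most of all between Ighg2b and Ighg2c, and these 2 are uncertain as separate genes. The reference strain C57BL/6 carries Ighg2c where many other strains carry a gene for IgG2a. Which of these the MRL strains carry was not tested, and the Ighg2c row is named here as the annotation names it.

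RNA of the constant-region genes for IgM, IgD, IgG and IgA was higher in MRL/lpr. The difference was small for IgM and IgD and far larger for the kappa chain, IgG, IgA and Jchain. The change was tested with the quasi-likelihood test of edgeR on raw counts, with Benjamini-Hochberg adjustment over the 19554 genes that passed a filter on low counts. Among these genes, 11.1% were higher in MRL/lpr at an adjusted p under 0.05, 4.67% were higher with a log2 fold change of at least 1, 9.06% were lower, 3.66% were lower by at least that much, and 19.6% were higher in every MRL/lpr library than in any MRL/mpj library. The median log2 fold change of all tested genes was −0.01, and −0.13 when only the library size was used for scaling. Ighm, Ighd, Ighg2b, Igha, Igkc and Jchain reached the filter level in all libraries of both strains. All 6 of these were higher in MRL/lpr, 4 of them with a log2 fold change of at least 1, and their median log2 fold change was 3.02. Ighg1, Ighg2c, Ighg3 and Mzb1 passed the filter only through the MRL/lpr libraries. They are given by their counts with a fitted fold or a bound, without a p-value, and are not support for that number. In these bulk libraries, fewer cells that make a transcript and less of it per cell cannot be told apart.

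**Figure D1:**
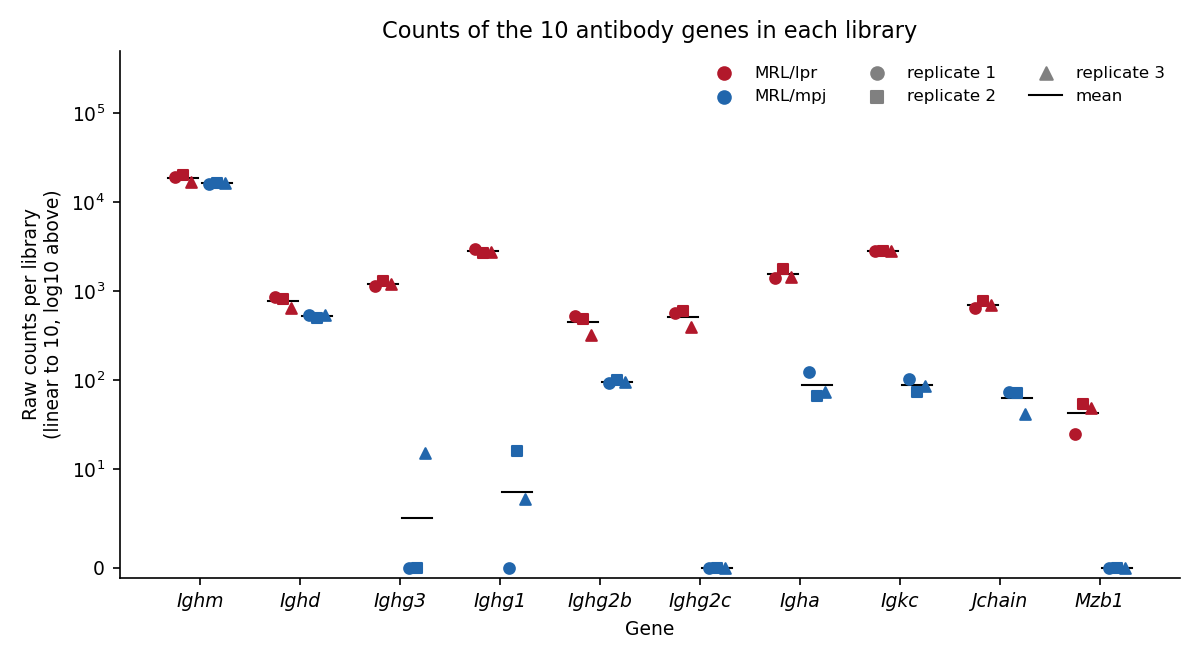
Raw counts of the 10 antibody genes in each of the 6 libraries, on an axis that is linear up to 10 and logarithmic above it. Points are libraries, bars are the mean of 3 libraries, red is MRL/lpr and blue is MRL/mpj. Ighm lies close together in the 2 strains (16802 to 19854 against 15970 to 16530), while Ighg2c and Mzb1 are at 0 in all MRL/mpj libraries.

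Ighm encodes the mu chain, the heavy chain with which all B cells start. It had 19191, 19854 and 16802 counts in MRL/lpr and 15970, 16530 and 16184 in MRL/mpj. Each MRL/lpr library lay above each MRL/mpj library, by a small margin, and the log2 fold change was 0.37 (SE 0.06, adjusted p = 0.00184, edgeR). In CPM, counts scaled to library size with TMM factors, Ighm was at 411 ± 10.1 in MRL/lpr and 317 ± 11.4 in MRL/mpj (SD, n = 3). Ighd, which encodes the delta chain that mature B cells carry beside IgM, had 859, 814 and 640 counts in MRL/lpr and 543, 503 and 539 in MRL/mpj. It too did not overlap between strains, with a log2 fold change of 0.72 (SE 0.12, adjusted p = 0.00273, edgeR).

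The gamma genes were near or at 0 in MRL/mpj and well detected in MRL/lpr, apart from Ighg2b, which was present in both. Ighg1 had 2934, 2654 and 2747 counts in MRL/lpr and 0, 16 and 7 in MRL/mpj. The fitted log2 fold change of 8.65 (SE 0.51, edgeR) rests on those few MRL/mpj counts and ran from 8.07 to 9.77 when single libraries were left out. Ighg3, the gamma gene nearest to Ighd, had 1135, 1304 and 1194 counts in MRL/lpr and 0, 0 and 15 in MRL/mpj. Only MRL/mpj replicate 3 held any, so the fitted log2 fold change of 8.06 (SE 0.78, edgeR) hangs on it. Without that library MRL/mpj was at 0, and the fitted value of 13.31 depended on the prior count of the fit. Ighg2c had 563, 593 and 391 counts in MRL/lpr and 0 in all 3 MRL/mpj libraries. Against a floor of 3 counts per library, it was at least 193-fold higher in MRL/lpr. Ighg2b had 524, 491 and 319 counts in MRL/lpr and 92, 100 and 95 in MRL/mpj. It was the most abundant gamma gene in MRL/mpj and the least changed of the 4, with a log2 fold change of 2.38 (SE 0.21, adjusted p = 5.08e-05, edgeR).

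Igha encodes the alpha chain of IgA, the class of mucosal surfaces and, in the brain, of plasma cells in the meninges. It had 1400, 1764 and 1455 counts in MRL/lpr and 124, 67 and 73 in MRL/mpj. The lowest MRL/lpr library stood far above the highest MRL/mpj library, and the log2 fold change was 4.30 (SE 0.23, adjusted p = 3.3e-06, edgeR).

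Igkc, which encodes the constant part of the light chain that most mouse antibodies use, had 2828, 2803 and 2837 counts in MRL/lpr and 103, 73 and 85 in MRL/mpj. Its 3 MRL/lpr values were nearly the same, and the log2 fold change was 5.20 (SE 0.14, adjusted p = 7.76e-08, edgeR). Jchain had 647, 765 and 696 counts in MRL/lpr and 74, 72 and 42 in MRL/mpj. The log2 fold change was 3.66 (SE 0.24, adjusted p = 9.02e-06, edgeR), with no overlap between strains. Mzb1, which lies on chromosome 18 at chr18:35647267-35649367, had 25, 54 and 48 counts in MRL/lpr and 0 in all MRL/mpj libraries. Against the floor of 3 counts per library it was at least 16.1-fold higher, from counts low enough that the excess at multiples of 4 bears on them.

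Levels of different genes were compared with the deposited FPKM values, which divide by gene length. In MRL/lpr the order was Ighm (186 ± 9.73 FPKM), Igkc (100 ± 4.18), Ighg1 (20.3 ± 1.16), Igha (10.9 ± 1.26), Ighg3 (9.11 ± 0.65), Ighd (7.64 ± 0.903), Ighg2c (7.31 ± 1.31), Jchain (5.28 ± 0.455), Ighg2b (3.12 ± 0.682) and Mzb1 (0.65 ± 0.244; SD, n = 3 each). The ranges of Ighg3 and Ighd met, and those of Ighd and Ighg2c overlapped, so these neighbours did not differ beyond their spread. In MRL/mpj the order was Ighm (157 ± 5.71 FPKM), Ighd (5.05 ± 0.125), Igkc (2.95 ± 0.472), Ighg2b (0.647 ± 0.0379), Igha (0.597 ± 0.211) and Jchain (0.443 ± 0.133), with Ighg1 (0 to 0.11) and Ighg3 (0 to 0.11) near 0. Ighg2c and Mzb1 were listed at 0 there. There the range of Ighg2b overlapped that of Igha, and that of Igha overlapped that of Jchain. Igkc was thus the second gene in MRL/lpr and the third, below Ighd, in MRL/mpj.

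The constant-region genes of the isotypes made up different shares of the heavy-chain counts in the 2 strains. Class names here stand for constant-region counts, and whether this RNA encodes whole antibody chains was not tested. Ighv counts per heavy-chain constant count were 0.0446 ± 0.00569 in MRL/lpr and 0.00576 ± 0.000606 in MRL/mpj (SD, n = 3). The 7 heavy-chain genes summed to 26606, 27474 and 23548 counts in MRL/lpr and 16729, 17216 and 16913 in MRL/mpj. IgM made up 72.1%, 72.3% and 71.4% of them in MRL/lpr and 95.5%, 96.0% and 95.7% in MRL/mpj. IgG made up 19.4%, 18.4% and 19.8% in MRL/lpr and 0.55%, 0.674% and 0.692% in MRL/mpj. IgA made up 5.26%, 6.42% and 6.18% in MRL/lpr and 0.741%, 0.389% and 0.432% in MRL/mpj. All of these shares separated the strains. IgD did not: it held 3.23%, 2.96% and 2.72% in MRL/lpr and 3.25%, 2.92% and 3.19% in MRL/mpj, overlapping ranges with a difference of −0.148 percentage points (p = 0.6, exact permutation test, two-sided).

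Constant-region counts of switched classes, IgG and IgA together, made up 25.1% ± 0.709 of heavy-chain counts in MRL/lpr and 1.16% ± 0.118 in MRL/mpj (SD, n = 3). The difference was 24.0 percentage points. The exact permutation test gave its smallest possible two-sided p of 0.1, so this design cannot reach 0.05 for a single value. The 95% Wilson intervals were narrow beside the difference, for example 24.1% to 25.2% in MRL/lpr replicate 1 and 1.13% to 1.47% in MRL/mpj replicate 1, and they cover counting error only. On FPKM, with gene length divided out, the switched share was 20.4%, 20.5% and 21.2% in MRL/lpr and 0.914%, 0.744% and 0.801% in MRL/mpj.

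**Figure D2:**
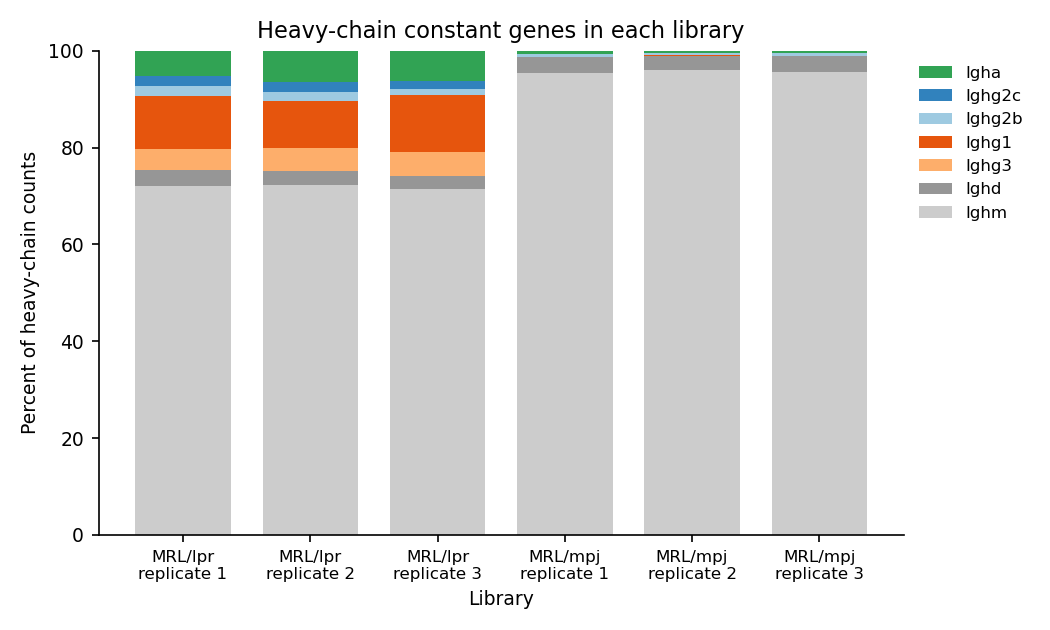
Share of the 7 heavy-chain constant genes in the heavy-chain counts of each library, in percent, stacked in the order of the genes on the chromosome from Ighm at the bottom to Igha at the top. Ighm fills 71.4% to 72.3% of the bars of MRL/lpr and 95.5% to 96.0% of those of MRL/mpj, and the remainder in MRL/lpr is mostly Ighg1, Igha and Ighg3.

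Within IgG, on FPKM, Ighg1 held 51.4%, 47.1% and 54.4% of the 4 gamma genes in MRL/lpr. Ighg3 held 20.5%, 23.9% and 24.4%, and Ighg2c 19.2%, 20.6% and 15.1%. Ighg2b held the least, 8.86%, 8.44% and 6.09%. In MRL/mpj the order was another one, with Ighg2b at 100%, 86.3% and 79.7%, but this rested on only 92 to 117 gamma counts per library. Reads of gamma genes may also have been split among them.

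The ratio of kappa to mu chain separated the strains, and the ratio of kappa to switched heavy chains did not. Per heavy-chain count, Igkc stood at 0.106, 0.102 and 0.12 in MRL/lpr and at 0.00616, 0.00424 and 0.00503 in MRL/mpj. On the log2 scale this ratio was −3.19 ± 0.125 against −7.62 ± 0.269 (SD, n = 3), a difference of 4.43 (p = 0.1, exact permutation test, two-sided, the smallest it can give). On FPKM, Igkc per Ighm was 0.522, 0.5 and 0.599 in MRL/lpr and 0.0227, 0.0156 and 0.0184 in MRL/mpj. MRL/mpj libraries therefore held mu-chain RNA at 157 FPKM with very little kappa RNA beside it. A ratio chosen after the values were seen, Igkc per summed gamma and alpha FPKM, was 1.95, 1.86 and 2.14 in MRL/lpr and 2.38, 2.02 and 2.21 in MRL/mpj. These ranges overlapped (difference −0.221, p = 0.2, exact permutation test, two-sided), which does not show that the ratios are equal. Summed over all heavy chains, FPKM was 245 ± 12.1 in MRL/lpr and 163 ± 5.53 in MRL/mpj, and the difference of 81.8 consisted of 29.8 from Ighm, 2.59 from Ighd and 49.4 from the switched genes. The difference in Igkc over the same libraries was 97.5 FPKM. Jchain per Igkc, also chosen after the values were seen, was 0.0526 ± 0.00473 in MRL/lpr and 0.152 ± 0.0508 in MRL/mpj (SD, n = 3; p = 0.1, exact permutation test).

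**Figure D3:**
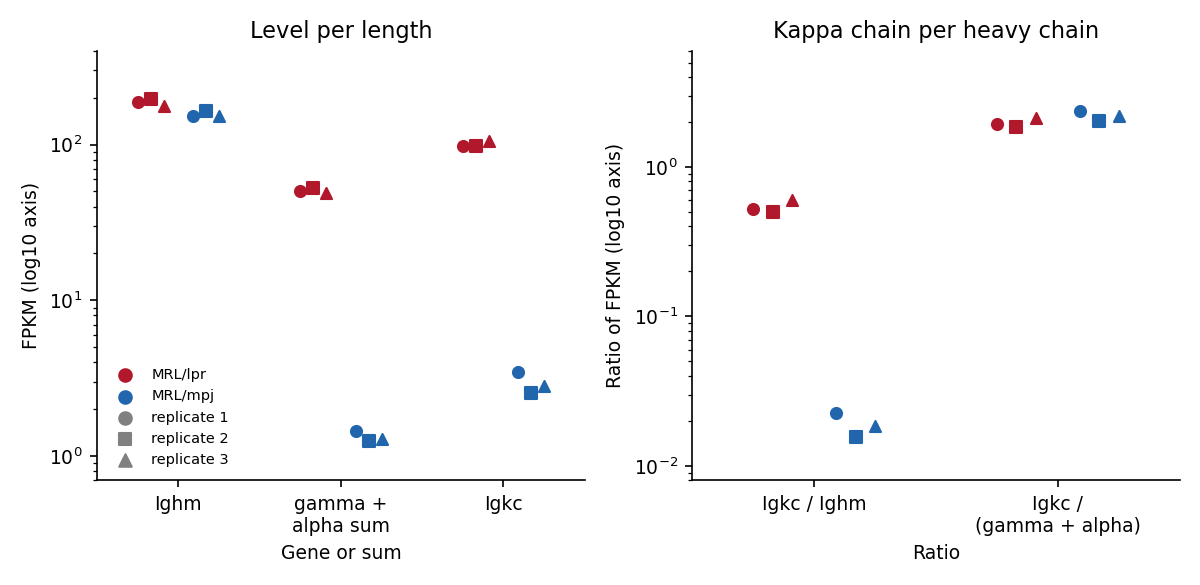
Left, FPKM of Ighm, of the summed gamma and alpha genes and of Igkc in each library, on a logarithmic axis. Right, Igkc FPKM divided by Ighm FPKM and by the gamma and alpha sum, on a logarithmic axis. Points are libraries, red is MRL/lpr and blue is MRL/mpj. Igkc per Ighm is 0.5 to 0.599 in MRL/lpr against 0.0156 to 0.0227 in MRL/mpj, while Igkc per switched heavy chain is 1.86 to 2.14 against 2.02 to 2.38.

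Other antibody rows gave the following values. Lambda light-chain constant genes had 66, 45 and 55 counts in MRL/lpr and 4, 9 and 9 in MRL/mpj. Of the 5 further constant genes listed, only Iglc2 passed the count filter, with 37, 31 and 31 counts against 0, 7 and 5. It was called higher (log2 fold change 3.17, SE 0.97, edgeR), but it passed the filter only through the MRL/lpr libraries, so the call is not support. The call was also lost without any 1 of the 6 libraries (adjusted p 0.0603 to 0.128). Ighe, for the IgE heavy chain, was at 0 in every library. Heavy-chain variable segments (Ighv) had 1344, 1076 and 1041 counts in MRL/lpr and 93, 91 and 109 in MRL/mpj. Per heavy-chain constant count, that was 0.0446 ± 0.00569 in MRL/lpr and 0.00576 ± 0.000606 in MRL/mpj (SD, n = 3; p = 0.1, exact permutation test, the smallest it can give). Kappa variable segments (Igkv) had 2450, 2238 and 2469 counts against 62, 79 and 48. Per Igkc count these were 0.866, 0.798 and 0.87 in MRL/lpr and 0.602, 1.08 and 0.565 in MRL/mpj, with overlapping ranges. The mu-chain RNA of MRL/mpj thus came with few variable-segment counts, while the ratio of kappa variable segments to Igkc did not separate the strains.

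Few genes of the B lineage passed the test other than the antibody genes. Of 20 B cell markers, 14 were tested, 1 was higher, 2 were lower and 11 did not pass, with a median log2 fold change of 0.37. Pou2af1, a coactivator of antibody gene transcription, rose from 16, 18 and 27 counts in MRL/mpj to 71, 83 and 60 in MRL/lpr (log2 fold change 1.98, SE 0.41, adjusted p = 0.0081, edgeR). Ebf1, a transcription factor of early B cells, and Ralgps2 were lower (log2 fold changes −0.45 and −0.51, adjusted p = 0.00922 and 0.00527, edgeR). The surface markers Cd79a and Ms4a1, named after their values were seen, had few counts. Cd79a, part of the B cell receptor, had 76, 63 and 56 against 12, 23 and 39 (log2 fold change 1.57, adjusted p = 0.0516). Ms4a1, which encodes CD20, had 16, 18 and 21 against 0, 8 and 4 (log2 fold change 2.34, adjusted p = 0.187). Their counts did not overlap between strains, but the adjusted p was above 0.05. Other surface markers, also named after their values were seen, pointed the other way: Cd79b, the partner of Cd79a, had 296, 273 and 326 against 413, 444 and 396 (log2 fold change −0.30, adjusted p = 0.276), and Fcer2a, which encodes CD23, had 0 in all MRL/lpr libraries against 8, 12 and 8 and was not tested. Of 6 genes of B cell precursors, 1 was tested and it did not pass.

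Of 15 plasma cell genes, all tested, 3 were higher, 0 were lower and 12 did not pass, with a median log2 fold change of 0.18. Tent5c, a poly(A) polymerase that stabilises antibody mRNA, had 23781, 24482 and 20457 counts in MRL/lpr and 14598, 13898 and 14967 in MRL/mpj (log2 fold change 0.83, SE 0.06, adjusted p = 1.08e-05, edgeR). Ell2, an elongation factor that favours the secreted form of heavy-chain mRNA, changed by 0.41 on the log2 scale (adjusted p = 0.0285, edgeR), and this call was lost without any 1 of the 6 libraries (adjusted p 0.0513 to 0.108). The remaining gene called higher was Tnfrsf13b (log2 fold change 0.26, adjusted p = 0.0366, edgeR). With single libraries left out, 1 to 2 genes of this list were called higher. Among genes named after their values were seen, 3 did not pass. Prdm1, which encodes the plasma cell regulator Blimp-1, changed by 0.24 (adjusted p = 0.0868). Sdc1, for the surface marker CD138, changed by −0.04 (adjusted p = 0.941), and Tnfrsf17, for the survival receptor BCMA, by −0.39 (adjusted p = 0.187). Many of these genes were well expressed in both strains. Their summed level was 1297 to 1349 CPM in MRL/lpr and 1050 to 1096 in MRL/mpj. This sum rested mostly on Tent5c (505 against 283 CPM on average, a difference of 222) and Edem1 (474 against 450, a difference of 24.1). Edem1 did not pass the test, so the higher sum does not speak for the list as a whole.

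Of 31 genes of antibody folding and export, all tested, 2 were higher and 2 lower, with a median log2 fold change of −0.02. Hspa5, the chaperone BiP that binds free heavy chains, had 199032, 199552 and 140872 counts in MRL/lpr and 130135, 136379 and 129508 in MRL/mpj (log2 fold change 0.61, SE 0.09, adjusted p = 0.00131, edgeR). Herpud1, a factor of endoplasmic-reticulum degradation, rose by 0.88 on the log2 scale (SE 0.06, adjusted p = 7.81e-06, edgeR). Sec61b, a subunit of the translocation channel, and the lectin chaperone Canx were lower (−0.59 and −0.22, adjusted p = 0.025 and 0.0286, edgeR). The call of Sec61b was lost without MRL/lpr replicate 1 or 2 or MRL/mpj replicate 1 or 2 (adjusted p 0.0761 to 0.0982), and that of Canx without any 1 library except MRL/lpr replicate 3 (0.0546 to 0.112). Xbp1, the transcription factor of the plasma cell secretory programme, did not pass (log2 fold change 0.22, adjusted p = 0.153).

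**Figure D4:**
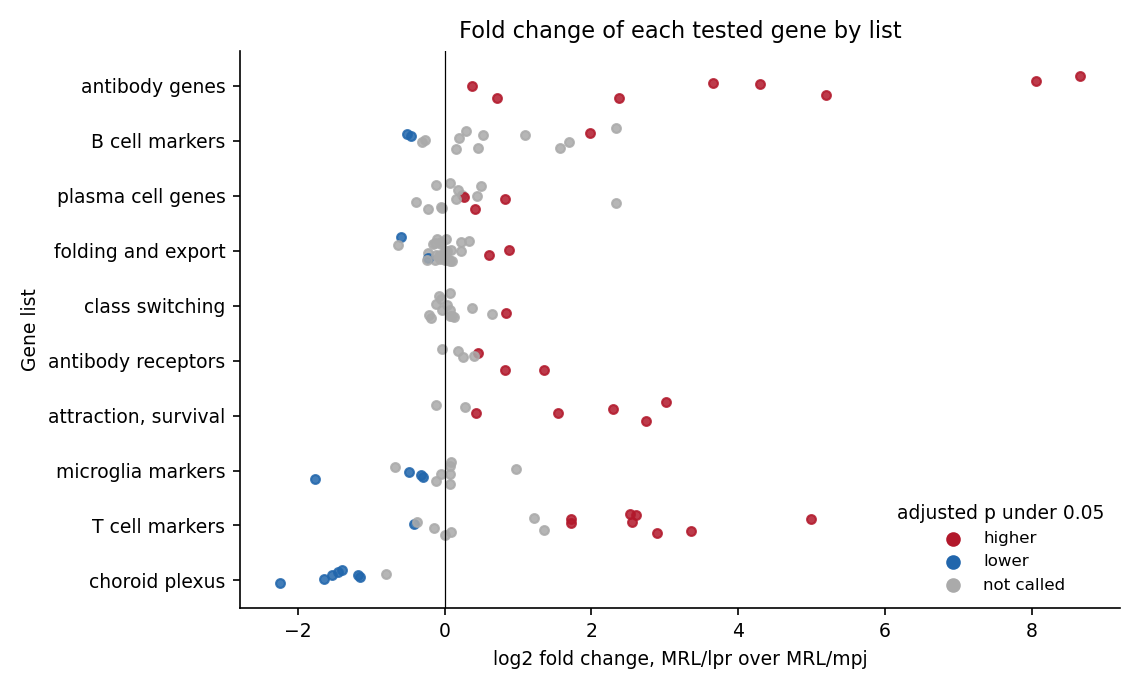
Log2 fold change, MRL/lpr over MRL/mpj, of each tested gene in 10 gene lists. Points are genes, red higher and blue lower at an adjusted p under 0.05 and grey neither, and genes at or under 3 counts in every library of either strain are left out because their fold is only a bound. Antibody genes at the filter level in both strains lie between 0.37 and 5.20, and the 2 farther right, Ighg3 and Ighg1, rest on few MRL/mpj counts. The medians of the plasma cell and the folding and export lists are 0.18 and −0.02.

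Class switching cuts and rejoins the heavy-chain locus with the help of DNA repair factors. Of 17 listed genes of switching and hypermutation, 16 were matched and 15 tested, 1 was higher and 0 lower. The higher one was Batf, a transcription factor needed for class switching (816, 797 and 696 counts against 518, 510 and 427, log2 fold change 0.84, SE 0.13, adjusted p = 0.00166, edgeR). Of 13 genes beside the heavy-chain locus, 10 were tested, 0 were higher and 1, Crip1, was lower (log2 fold change −0.75, adjusted p = 0.0326, edgeR), a call lost without any 1 library except MRL/mpj replicate 3 (adjusted p 0.0886 to 0.115). With the replicate number as a block, 1 of these genes was higher.

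Receptors that bind antibody were higher in part. Of 11 listed genes, 7 were tested, 3 were higher and 0 lower. Fcgr2b, the inhibitory IgG receptor, had 7624, 8038 and 6596 counts in MRL/lpr and 3207, 3566 and 3089 in MRL/mpj (log2 fold change 1.35, SE 0.09, adjusted p = 6.87e-06, edgeR). Fcgr4, an activating receptor, had 337, 474 and 400 counts against 217, 255 and 305 (log2 fold change 0.82, SE 0.20, adjusted p = 0.0181, edgeR), and its call was lost without MRL/lpr replicate 2 or MRL/mpj replicate 1 or 2 (adjusted p 0.0612 to 0.074). Fcgrt, the neonatal receptor that carries IgG across cells, did not pass (log2 fold change 0.25, adjusted p = 0.117), and Pigr, which carries IgA, had at most 4 counts.

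Of 11 listed factors that attract B cells or keep plasma cells alive, 8 were tested, 5 were higher, 1 was lower and 2 did not pass. Cxcl13, the chemokine that draws B cells, had 90, 160 and 85 counts in MRL/lpr and 22, 11 and 13 in MRL/mpj (log2 fold change 3.02, SE 0.43, adjusted p = 0.00105, edgeR). Tnfsf13b, which encodes the B cell survival factor BAFF, had 1752, 1722 and 1215 counts against 257, 261 and 262 (log2 fold change 2.75, SE 0.13, adjusted p = 1.41e-06, edgeR). Ccl19, a chemokine of lymphoid tissue, had 0, 3 and 0 counts in MRL/lpr and 42, 44 and 36 in MRL/mpj. It was at least 12-fold lower in MRL/lpr against the floor of 3 counts per library. Ccl19 passed the filter only through the MRL/mpj libraries, so its call is not support. In 2 alternatives the count of lower genes in this list was not 1, with a range of 0 to 2.

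Markers of other cells moved with strain too, and their part in the antibody results was not tested. Of 16 T cell markers, 9 were higher and 1 lower. Of those higher, Cd3e, Cd3g, Cd8b1, Trac, Trbc1 and Trbc2 passed the filter only through the MRL/lpr libraries, so their calls are not support. Cd4, Cd8a and Lck reached the filter level in both strains (log2 fold changes 1.72, 2.9 and 1.72, adjusted p = 0.0097, 0.000416 and 0.000468, edgeR). Cd3e, a subunit of the T cell receptor complex, had 103, 92 and 120 counts in MRL/lpr and 2, 0 and 9 in MRL/mpj (fitted log2 fold change 4.99, SE 0.78, edgeR). Cd8b1 had 70, 77 and 28 against 0 in all MRL/mpj libraries, at least 21.6-fold higher. The summed level of the T cell list was 120 to 135 CPM in MRL/lpr and 129 to 133 in MRL/mpj, but it rested mostly on Il7r, the receptor for interleukin-7 (66.3 against 88.1 CPM on average), and Lef1 (21.7 against 21.5), while Cd3e stood at 2.34 against 0.0706. Il7r was lower (log2 fold change −0.41, adjusted p = 0.00705). Of 8 natural killer cell markers, 5 were higher, led by Nkg7 and Prf1 (log2 fold changes 2.63 and 2.61), and their sum was 18.7 to 22.8 CPM against 9.8 to 10.4. Of 8 choroid plexus markers, 7 were lower, led by Prlr and Ttr (log2 fold changes −2.24 and −1.64), with a sum of 361 to 376 CPM against 1077 to 1163. The sum of the B cell list was 118 to 126 CPM in MRL/lpr and 138 to 151 in MRL/mpj. Of 12 microglia markers 0 were higher and 4 lower, led by Fcrls (log2 fold change −1.76), with a sum of 24068 to 26576 CPM against 27996 to 28642. The count of lower markers was 7 without MRL/lpr replicate 3. One member of that list, Cx3cr1, the fractalkine receptor, had 10645, 132706 and 10334 counts in MRL/lpr and 28995, 27912 and 29349 in MRL/mpj, so MRL/lpr replicate 2 stood apart, and this value enters its sum. Cx3cr1 did not pass the test with all libraries (log2 fold change 0.97, adjusted p = 0.664, edgeR), and it was lower without that library (−1.25, adjusted p = 3.14e-05). Of 7 monocyte markers 2 were higher and 1 lower, of 10 neutrophil markers 3 were higher, of 6 plasmacytoid dendritic cell markers 2 were lower, of 7 erythrocyte markers 6 were tested and 1 was higher, and of 8 border macrophage markers 2 were lower.

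The genes whose pattern over the 6 libraries was most like those of Igkc and Ighm were found by the root-mean-square difference of gene-centred log2(CPM + 0.5) among 19493 tested genes that are not antibody genes. For Igkc they were 6030468B19Rik (0.203), Ifi44l (0.227) and Kcnip3 (0.253), on chromosomes 11, 3 and 2. For Ighm they were Topbp1 (0.029), Kcp (0.029) and Plekhm2 (0.035), on chromosomes 9, 6 and 4. Kcnip3, for example, had 2233, 2172 and 1909 counts in MRL/lpr and 82, 86 and 88 in MRL/mpj, and Topbp1 had 2738, 2883 and 2331 against 2255, 2306 and 2373. With 6 libraries in 2 strains, likeness mostly says that a gene differs between strains by a similar amount on this scale. The added 0.5 CPM limits the fold of genes near 0 in MRL/mpj. There 6030468B19Rik was at 0 in all libraries (at least 194-fold higher in MRL/lpr) and Ifi44l had 0, 4 and 0 counts. Igkc was 36.7-fold higher, so for these genes likeness on this scale is not likeness of fold.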

How the data were processed

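RNA from CD11b-selected brain cells of MRL/lpr and MRL/mpj mice was sequenced, 3 libraries each. Labels name ribosomal RNA depletion and a stranded total RNA kit, whereas the study's methods describe purified mRNA. Per the submitters' processing notes, cutadapt 1.9.3, HISAT2 2.0.4, Cufflinks, Cuffdiff 2.2.1 and GRCm38 were used. The counting tool and annotation are not given in the sources used here. The authors deposited raw counts per gene, the basis of all tests, and FPKM values (counts scaled to gene length and library size), used for levels between genes. For the antibody genes, FPKM implied 1.119 to 1.124 times the exonic length of GENCODE M21, the same factor for all 9 that could be checked, so that annotation's lengths fit them.

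Gene symbols, positions and sequences came from GENCODE M21, which held 55141 of 55401 identifiers. The study's methods name DESeq2, with a minimum log2 fold change of 1 in size. Here edgeR 4.0.16 (R 4.3.3) was the main test, with filterByExpr (minimum count 10, minimum total 15), TMM scaling, robust quasi-likelihood dispersions and Benjamini-Hochberg adjustment over 19554 of the 30602 genes with a count. A gene was called at an adjusted p under 0.05. Standard errors are the log2 fold change divided by the square root of F. CPM are TMM-scaled. Single values were compared by exact permutation (scipy 1.17.1). Folds against a strain at or below the floor of 3 counts in every library are bounds. Sums and shares of V segments used 216 genes. The fit was tested on simulated data. Replicate numbers come from sample titles. Same-numbered libraries did not deviate together.

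The antibody genes and gene lists were chosen with earlier results of these data known. Genes named were the 10 antibody genes, up to 2 called genes per list in each direction with the largest fold, 3 nearest in pattern to Igkc and to Ighm, and all 5 sex-linked genes; other genes were chosen after their values were seen. Some listed genes are not reported here by name. Shld3 had no matching identifier. Ero1a and Ero1b were matched as Ero1l and Ero1lb. Alternatives were DESeq2 1.42.0, RLE scaling, library size only, no count filter, dispersions not robust, counts divided by 4, the replicate number as a block, and each library left out.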

Additional observations from a re-analysis of the deposited data

How the results depend on the processing

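The 6 genes at the filter level in both strains were called higher in all 13 alternatives. Ighg1, Ighg2c, Ighg3 and Mzb1 also kept their direction wherever they were tested. They passed the filter only through the MRL/lpr libraries, so this is not support. Mzb1 did not pass the filter with counts divided by 4. Over the 13 alternatives the log2 fold change was 0.25 to 0.40 for Ighm (lowest with library size only; adjusted p 3.03e-05 to 0.0285), 0.60 to 0.79 for Ighd, 2.26 to 2.53 for Ighg2b, 4.15 to 4.63 for Igha, 5.07 to 5.33 for Igkc and 3.43 to 3.79 for Jchain. The difference in switched share was 19.9 percentage points on FPKM in place of counts and 23.5 to 24.2 with single libraries left out. The difference in the log2 ratio of Igkc to heavy chains was 4.84 to Ighm alone, 4.51 on FPKM, 4.33 with lambda genes added, and 4.30 to 4.57 with single libraries left out.

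Counts of called genes in the lists moved more. Plasma cell genes called higher ran from 1 to 3, B cell markers higher from 1 to 2, folding and export genes lower from 0 to 6 (6 with library size only), further constant genes higher from 0 to 2, T cell markers higher from 7 to 10, microglia markers lower from 4 to 7, monocyte markers higher from 1 to 3, neutrophil markers higher from 1 to 5, plasmacytoid markers lower from 1 to 2, erythrocyte markers higher from 0 to 2, border macrophage markers lower from 1 to 2, and genes beside the heavy-chain locus lower from 0 to 2 and higher from 0 to 1. The causes were not tested.

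The replicate numbers did not pair the libraries: deviations of same-numbered libraries correlated at −0.041, −0.02 and −0.033. A fit with the replicate number as a block called the same count of 6 among the genes at the filter level in both strains. With the block, 1 plasma cell gene was called higher, 0 folding and export genes lower and 1 gene beside the heavy-chain locus higher. Depth limits the MRL/mpj values of Ighg1, Ighg3, Ighg2c and Mzb1, which rest on at most 16 counts in any library.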
